A study of Mus musculus with 6 samples.

Results

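In AML12 cells, a line of mouse hepatocytes, 10 genes of the glucose-sensing pathway of TXNIP and ChREBP were followed: *Txnip*, *Arrdc2*, *Arrdc3*, *Arrdc4*, *Mlxip*, *Mlxipl*, *Gfpt1*, *Gfpt2*, *Pklr* and *Slc2a2*. They were taken from the deposited tables by gene symbol, and all 10 were found among the 25330 genes listed. The dataset consisted of 6 mRNA-seq libraries of wild-type AML12 cells, 3 of normoxic control cells (Control) and 3 of cells exposed to hypoxia and reoxygenation (H/R). Control cells were kept at 21% O2 and 5% CO2 in DMEM/F12 with fetal bovine serum, an insulin, transferrin and selenium supplement and dexamethasone. For H/R, this medium was exchanged for one without serum or glucose, the cells were held at 1% O2 and 5% CO2 for 6 h, and oxygen was then returned for 2 h. Oxygen, glucose and serum therefore changed together between the groups, and their parts cannot be told apart. Whether the supplement and dexamethasone were kept in the H/R medium is not stated in the sources used here. AML12 is a single line that was derived from a mouse with a human TGF-alpha transgene. No source used here states that the 3 libraries of a group came from separate cultures, so the p-values measure the spread between these libraries, which may be technical.

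In hepatocytes, ChREBP (encoded by *Mlxipl*) and its relative MondoA (encoded by *Mlxip*) are transcription factors that respond to phosphorylated glucose. Each pairs with MLX and binds the carbohydrate response element, a repeat of 2 E-boxes, near genes such as *Pklr*, *Txnip* and *Arrdc4*. TXNIP and ARRDC4 are alpha-arrestins, adaptor proteins that restrain glucose uptake by drawing transporters from the cell surface, so that a rise in glucose brings a brake on its own entry. GFPT1 and GFPT2 divert fructose-6-phosphate into the hexosamine pathway, which makes the sugar donor for protein glycosylation.

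The promoter sequences of *Txnip* and *Pklr* are shown because, among the 10 genes, these alone carried a paired E-box in the window searched, and because one was near the limit of detection while the other was among the most abundant. RefSeq promoter windows of 300 bases (250 before and 50 after an annotated start site, GRCm38.p6) were found for all 10 genes, 14 windows in all. They were searched on both strands for 2 imperfect E-boxes, each CACGNG or its complement CNCGTG, with 5 bases between them. The match in *Txnip* ran from position -85 to -69. In *Pklr* it ran from -170 to -154 before the downstream one of its 2 start sites, from which the liver form of pyruvate kinase is known to be transcribed. The 250 bases before these start sites are given 5′ to 3′ on the plus strand of chromosome 3, with the matched pair in capitals, at chr3:96557707-96557956 for *Txnip* and chr3:89136373-89136622 for *Pklr*.
Txnip: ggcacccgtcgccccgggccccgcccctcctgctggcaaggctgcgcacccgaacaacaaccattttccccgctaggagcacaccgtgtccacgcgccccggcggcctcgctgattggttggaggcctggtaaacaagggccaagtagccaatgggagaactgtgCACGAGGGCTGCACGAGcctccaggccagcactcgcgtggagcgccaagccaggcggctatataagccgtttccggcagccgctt
Pklr: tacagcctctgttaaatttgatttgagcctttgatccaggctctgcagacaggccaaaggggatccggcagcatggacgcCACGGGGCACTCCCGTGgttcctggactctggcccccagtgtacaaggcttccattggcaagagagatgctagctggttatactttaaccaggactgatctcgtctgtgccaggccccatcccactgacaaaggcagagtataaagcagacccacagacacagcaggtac

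Such a pair is rare: 27 of 32851 mouse promoter windows of the same length held one, which is 0.0822%. The full E-box CACGTG was present in 7.15% of all windows, and among the 10 genes in *Arrdc4* (-193 to -188) and in the upstream window of *Mlxipl* (-98 to -93). CCAAT boxes, present in 37.4% of all windows, numbered 6 in the *Arrdc4* window, 3 in that of *Arrdc2* and 2 in that of *Txnip*. The letters ACGTG or GCGTG, which overlap CACGTG, were in 43.8% of all windows, and the forkhead-type sequence GTAAACA was in 3.65%, including those of *Txnip*, *Gfpt1* and *Gfpt2*. These are matches of letters and not measured binding sites.

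**Figure D1:**
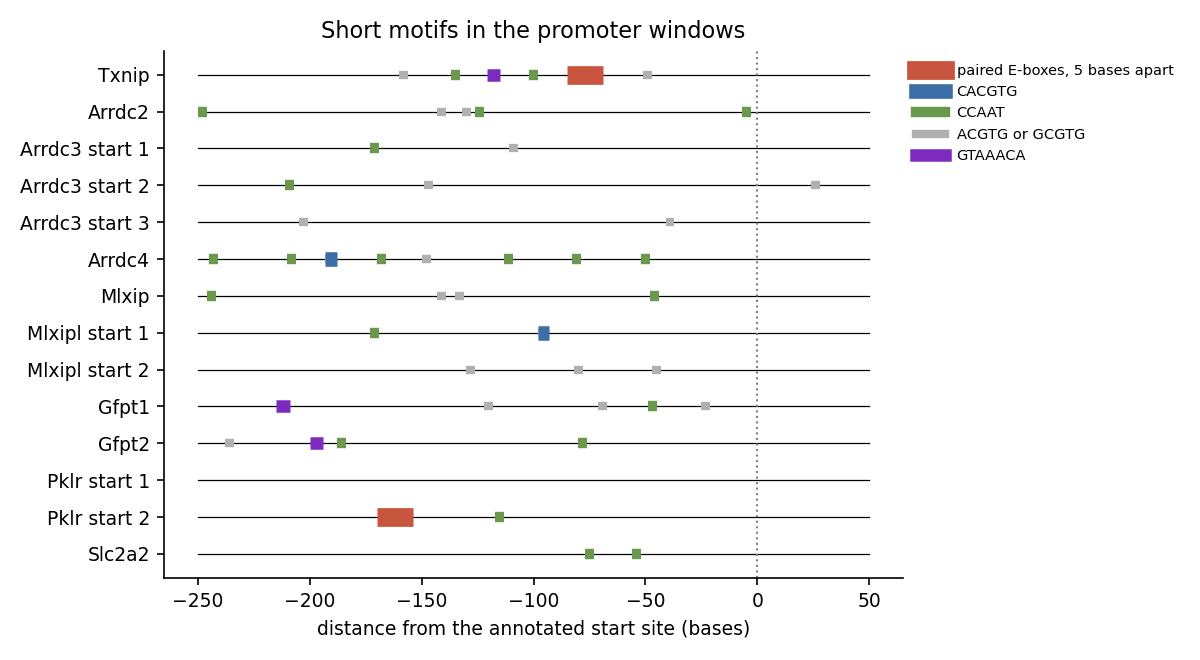
Positions of 5 short motifs in the 14 RefSeq promoter windows of the 10 genes, in bases from the annotated start site (dotted line at 0), with one row per start site. The paired E-boxes lie in the *Txnip* window at -85 to -69 and in the window of the second *Pklr* start at -170 to -154, and in no other row.

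The libraries were of similar depth, with 20438746 to 21854790 counts. Of 11 hepatocyte markers, 11 exceeded 3 counts in at least 1 library, and their summed counts were 90995 to 99721 in Control and 129592 to 137919 in H/R, most of them from *Krt8* and *Krt18*, while *Alb* had 132 to 542 counts in Control and 31 to 43 in H/R. Control replicate 1 stood apart in 16 adult liver transcripts, which summed to 435 counts there, 10 in each of the other Control libraries and 4 to 7 in H/R. The same library had 131335 counts of the ribosomal RNA gene Rn18s-rs5, against 28347 to 43775 in the other 5. The part of either in the results was not tested, and results that rest on this library are also given without it. Of 12 markers of blood and nonparenchymal liver cells, 5 exceeded 3 counts, with sums of 41 to 48 in Control and 127 to 173 in H/R. *Cd68* had 16, 22 and 22 counts in Control and 123, 113 and 137 in H/R, and made up most of the H/R sums. *Ptprc*, *Adgre1*, *Clec4f* and *Pecam1* had at most 3 counts in every library. The erythroid list, included because red cells also use *Pklr*, summed to 8 to 29 counts in Control and 9 to 15 in H/R. None of the 7 pancreas and beta-cell genes looked up was among the genes listed.

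*Txnip*, *Arrdc4* and *Gfpt2* were at the limit of detection in both groups. *Txnip* (chr3:96557957-96561883, plus strand) had 0, 2 and 0 counts in Control and 0, 0 and 2 in H/R, in the order of the replicate numbers as throughout. *Arrdc4* (chr7:68736995-68749241, minus strand) had 1, 0 and 0 counts in Control and 0, 0 and 0 in H/R. *Gfpt2* (chr11:49794178-49838613, plus strand) had 0, 0 and 0 counts in Control and 0, 0 and 1 in H/R. No library exceeded 3 counts for any of them, which corresponds to 0.137 to 0.147 CPM (counts scaled to library totals), and this limit covers counting error only. These 3 genes did not pass a filter on low counts, so the main test gave no fold change for them. A difference between the groups was not detectable at this depth.

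The *Txnip* gene model shared 19.4% of its exon length with Gm15441 on the opposite strand, and Gm15441 had 1, 1 and 0 counts in Control and 0, 0 and 3 in H/R, so the antisense transcript was also at the limit. The deposited models of all 3 genes held 100% of the exon bases of their GENCODE M21 counterparts. Annotated exons were therefore not missing from the models on which these low counts rest.

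**Figure D2:**
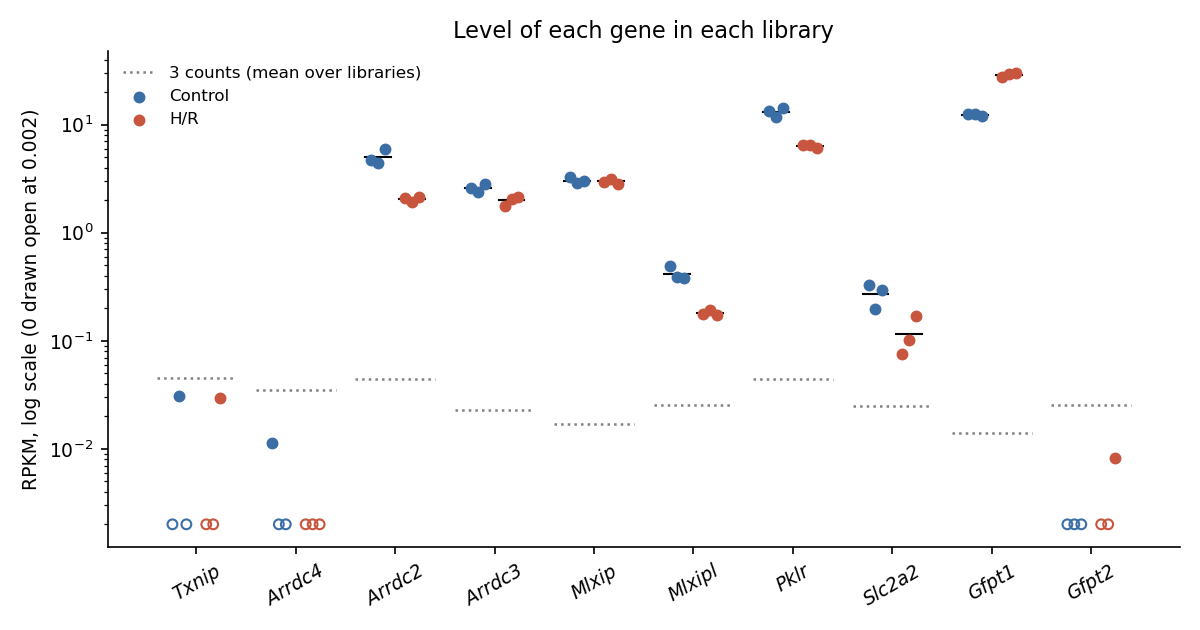
RPKM on a log scale for each of the 10 genes in each library (3 Control and 3 H/R points per gene, with a bar at the group mean; open circles are libraries with 0 counts, and the dotted line is the value of 3 counts). *Txnip*, *Arrdc4* and *Gfpt2* lie under their 3-count line in all 6 libraries, and *Gfpt1* is the only one whose H/R points all lie above all of its Control points.

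The other 7 genes entered edgeR's quasi-likelihood test, with p-values adjusted by Benjamini-Hochberg over the 14020 genes tested. Calls needed both an adjusted p under 0.05 and a change of at least 2-fold. *Gfpt1* was called higher after H/R, and *Arrdc2*, *Mlxipl* and *Slc2a2* were called lower. Across all genes tested, 4.25% were called higher and 4.27% lower. By adjusted p alone, *Pklr* and *Arrdc3* were also lower, so that 1 of the 7 was higher and 5 lower, beside 31.0% higher and 31.8% lower among all genes. The normalised counts of the groups did not overlap for 6 of the 7, which was also the case for 65.9% of all genes. Because the 7 were left by a filter on low counts, these tallies describe them and are not evidence about the set of 10.

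Among the alpha-arrestins, *Arrdc2* and *Arrdc3* were the expressed members. *Arrdc2* (chr8:70835129-70839720, minus strand), one of the less studied alpha-arrestins, had 336, 303 and 412 counts in Control and 139, 126 and 149 in H/R. Every H/R library was well below every Control library. The normalised count was 334 ± 48.1 (SD, n = 3) in Control and 145 ± 7.75 (SD, n = 3) in H/R, a 2.30-fold decrease (log2 fold change -1.20, SE 0.106, adjusted p = 5.96e-12 by edgeR).

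*Arrdc3* (chr13:80883384-80896035, plus strand), whose protein is known to bind beta-adrenergic receptors and to bring NEDD4-family ubiquitin ligases to them, changed far less. It had 354, 312 and 376 counts in Control and 229, 262 and 292 in H/R, and the groups came close without overlapping. The log2 fold change was -0.27 (SE 0.0896, adjusted p = 0.00822 by edgeR), equal to a 1.21-fold decrease. This call was lost without Control replicate 3 (-0.22, adjusted p = 0.0518 by edgeR) and without H/R replicate 1 (-0.21, adjusted p = 0.0677 by edgeR).

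Per length, *Txnip* and *Arrdc4* lay far below these relatives. In Control the RPKM of *Arrdc2* was 5.07 (range 4.46 to 5.98), and 3 counts of *Txnip* would have given 0.0449. The lowest Control library of *Arrdc2* was thus at least 97.6-fold higher than *Txnip*, and in H/R at least 40.6-fold. *Arrdc3*, with an RPKM of 2.59 in Control and 1.99 in H/R, was at least 51.9-fold and 38.1-fold higher than *Txnip*. Over *Arrdc4*, *Arrdc2* was at least 126-fold higher in Control and 52.5-fold in H/R.

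The balance between *Arrdc2* and *Arrdc3* was not the same in the groups. The ratio of their RPKM values was 1.84, 1.88 and 2.12 in Control and 1.18, 0.931 and 0.988 in H/R. The ratio was thus near 2 in all Control libraries and near 1 in all H/R libraries. On the log2 scale the ratio changed by -0.92, with an exact two-sided permutation p of 0.1, which is the smallest that 3 libraries against 3 allow (0.1 after adjustment over the 2 pairs tested).

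The genes of the glucose-responsive factors differed from each other. *Mlxip*, which encodes MondoA (chr5:123394798-123457932, plus strand), had 592, 504 and 532 counts in Control and 508, 537 and 510 in H/R. The groups overlapped, with a log2 fold change of 0.074 (95% interval -0.069 to 0.22, adjusted p = 0.372 by edgeR), and the interval of the fold ran from 0.953 to 1.16. The sign of this small difference turned when libraries were scaled by their totals alone (-0.031) and in both limma fits. *Mlxip* shared 3.21% of its exon length with Gm15747 on the opposite strand.

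*Mlxipl*, which encodes ChREBP (chr5:135089890-135138382, plus strand), was weakly expressed. It had 59, 45 and 45 counts in Control and 20, 22 and 21 in H/R and the groups were well apart. Its normalised count was 47.4 ± 7.39 (SD, n = 3) in Control and 22.1 ± 1.45 (SD, n = 3) in H/R, a 2.14-fold decrease (log2 fold change -1.10, SE 0.239, adjusted p = 0.000155 by edgeR). Control replicate 1, the library with adult liver transcripts, was the highest of the Control libraries. Without it the log2 fold change was -0.96 (adjusted p = 0.0024 by edgeR), which passed by p but was under 2-fold. *Mlxipl* shared 4.24% of its exon length with Gm43500 on the opposite strand, which had 3, 0 and 0 counts in Control and 0, 0 and 0 in H/R.

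Per length, *Mlxip* was the more abundant factor in every library. The ratio of *Mlxip* to *Mlxipl* RPKM was 6.67, 7.45 and 7.86 in Control and 16.9, 16.2 and 16.2 in H/R. The ranges were far apart, and the log2 ratio differed by 1.17 (exact two-sided permutation p = 0.1, the smallest possible). With 0.1 added to each RPKM value, which weighs on the low values of *Mlxipl*, the difference was 0.85.

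**Figure D3:**
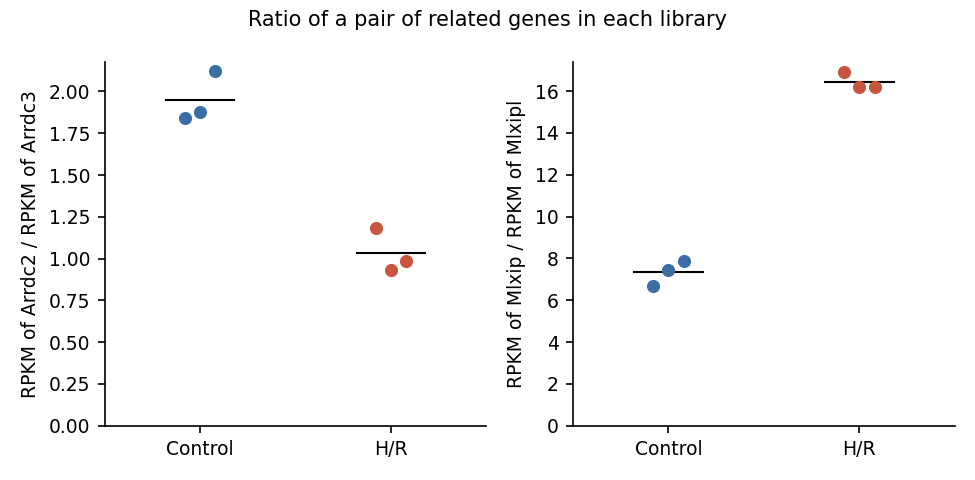
Ratio of the RPKM values of *Arrdc2* to *Arrdc3* (left) and of *Mlxip* to *Mlxipl* (right) in each library, on linear axes from 0, with points for libraries and a bar at the group mean. The *Arrdc2* to *Arrdc3* ratio lies between 1.84 and 2.12 in Control and between 0.931 and 1.18 in H/R, while the *Mlxip* to *Mlxipl* ratio lies between 6.67 and 7.86 in Control and between 16.2 and 16.9 in H/R.

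The 2 liver glucose genes downstream, a glycolytic enzyme and a transporter, were both lower after H/R. *Pklr* (chr3:89136142-89146784, plus strand) encodes liver and red cell pyruvate kinase, the last enzyme of glycolysis and a classical ChREBP target, and holds the paired E-box shown above. It had 948, 805 and 979 counts in Control and 432, 432 and 429 in H/R. The H/R libraries lay close together at about the same level, below all Control libraries. The normalised count was 868 ± 72.9 (SD, n = 3) against 453 ± 21.3 (SD, n = 3), a 1.92-fold decrease (log2 fold change -0.94, SE 0.067, adjusted p = 2.36e-14 by edgeR), just short of 2-fold. It was past 2-fold when scaled by upper quartile (-1.01) or by library totals (-1.04), in the limma fit to log2(RPKM + 0.1) (-1.03), and without Control replicate 2 (-1.01). In that limma fit *Mlxipl* (-0.88) and *Slc2a2* (-0.80) were under 2-fold, so that 3 genes were past both thresholds, 2 of them among the 4 called by edgeR.

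Part of the *Pklr* signal may be shared with a neighbour, because 22% of its exon length overlaps *Hcn3*, a channel gene on the opposite strand. Whether reads were counted by strand is not given in the sources used here. *Hcn3* itself had 157, 130 and 143 counts in Control and 60, 70 and 75 in H/R, which moved in the same direction at a much lower count. What part reads from *Hcn3* had in the *Pklr* result was not tested. The counts cannot separate transcripts from the 2 annotated *Pklr* starts.

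*Slc2a2* (chr3:28697903-28731359, plus strand) encodes GLUT2, the main glucose transporter of the liver. It had 41, 24 and 36 counts in Control and 9, 12 and 21 in H/R. The highest H/R library was just below the lowest Control library, so the separation was narrow. The fold change was a 2.18-fold decrease with a wide 95% interval, the H/R level being 0.298 to 0.708 of Control (log2 fold change -1.12, SE 0.307, adjusted p = 0.00188 by edgeR). Without Control replicate 1 the log2 fold change was -0.96 (adjusted p = 0.0182 by edgeR) and without H/R replicate 1 it was -0.90 (adjusted p = 0.0181 by edgeR), both under 2-fold. *Slc2a2* passed the filter on low counts through its Control libraries.

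*Gfpt1* was the member that rose. *Gfpt1* (chr6:87042846-87092197, plus strand) encodes the enzyme that sets the pace of the hexosamine pathway. It had 2766, 2655 and 2583 counts in Control and 5713, 6105 and 6541 in H/R. The lowest H/R library exceeded the highest Control library by far. The normalised count rose from 2547 ± 101 (SD, n = 3) to 6425 ± 236 (SD, n = 3), a 2.52-fold increase (95% interval 2.37 to 2.68, log2 fold change 1.34, adjusted p = 1e-23 by edgeR). Its exons overlapped no other listed gene. The related *Gfpt2* stayed at the limit of detection, and *Gfpt1* was at least 478-fold higher per length in Control and 1057-fold in H/R.

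**Figure D4:**
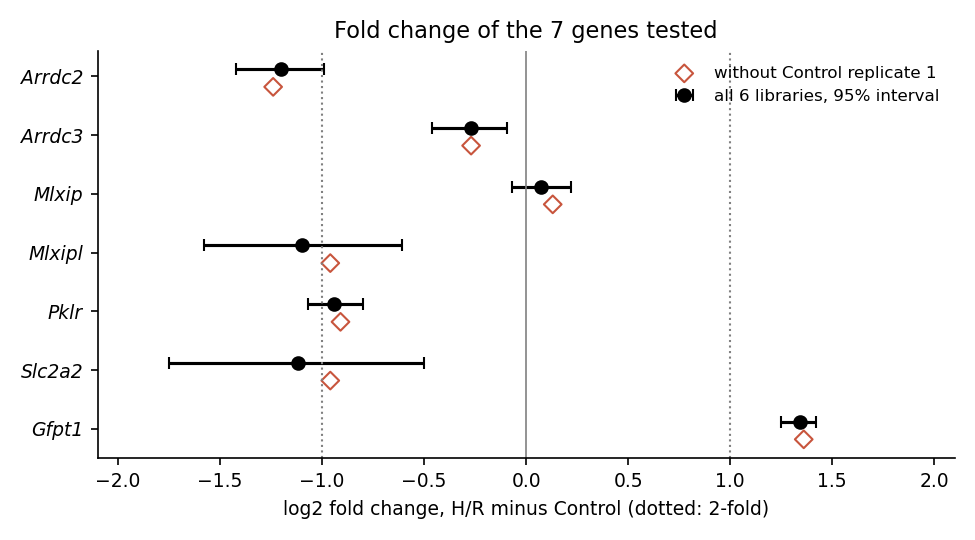
Log2 fold change (H/R minus Control) of the 7 genes tested, with filled points and bars for the estimate and its 95% interval from all 6 libraries and open diamonds for the estimate without Control replicate 1. Dotted lines mark 2-fold, and *Mlxipl* and *Slc2a2* move from -1.10 and -1.12 to -0.96 without that library while *Gfpt1* stays above 1.

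The order of the levels per length also changed. In Control it ran from *Pklr* (mean RPKM 13.1) and *Gfpt1* (12.4), whose ranges overlapped, to *Arrdc2* (5.07), *Mlxip* (3.04), *Arrdc3* (2.59), *Mlxipl* (0.418) and *Slc2a2* (0.273), which did not overlap their neighbours. In H/R *Gfpt1* was first (29.1), followed by *Pklr* (6.38), *Mlxip* (2.98), *Arrdc2* (2.04), *Arrdc3* (1.99), *Mlxipl* (0.182) and *Slc2a2* (0.115). The ranges of *Arrdc2* and *Arrdc3* then overlapped, and those of the other neighbours did not. Among all 25330 genes, *Gfpt1* moved from above 83.7% of genes in Control to above 92.1% in H/R, and *Pklr* from above 84.3% to above 76.1%.

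Because the counts of *Txnip* were too low for a pattern across libraries, the genes most like *Gfpt1* and *Pklr* were listed instead, a choice made after the values were seen. The measure was the Euclidean distance between log2 CPM values centred on their mean over the 6 libraries, among 10178 genes with a mean of at least 100 counts. A flat gene would lie at 1.64 from *Gfpt1*. The nearest to *Gfpt1* were *Klf4* (0.0787), *Sdc4* (0.0923), *Dnajb9* (0.0994), *Clk4* (0.101) and *Klf6* (0.106). Their log2 fold changes were 1.30 to 1.39, beside 1.34 for *Gfpt1*. The nearest to *Pklr*, from which a flat gene would lie at 1.16, were *Umps* (0.0827), Gm15800 (0.12), *Trappc1* (0.125), *Obfc1* (0.126) and *Pnp* (0.133). Their log2 fold changes were -0.99 to -0.92, beside -0.94 for *Pklr*. The distance thus mostly picks genes with a like difference between the groups, and shared control was not tested.

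The rest of the pathway was examined in 6 lists, 73 of whose 94 genes were tested. Of these 73, 8 were called higher and 7 lower, and by adjusted p alone 29 were higher and 21 lower. Over all genes tested, 4.25% were called higher and 4.27% lower, and 31.0% were higher and 31.8% lower by adjusted p alone, and the counts of each list below are to be read against these shares. By adjusted p alone, the genes lower among the 73 were no more frequent than among all genes, and those higher were more frequent. Genes called by both thresholds were more frequent in either direction. The lists were chosen with earlier results known, so these shares only describe them. The median log2 fold change over the 73 genes was 0.082, against -0.014 over all genes tested.

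The ChREBP targets that were called were lipogenic genes. Of 13 target genes tested, 4 were called lower and none higher (7 lower and 2 higher by adjusted p alone, median -0.22), beside 4.27% called lower and 31.8% lower by adjusted p among all genes. The 4 all encode steps of fatty acid synthesis: *Elovl6*, the elongase of palmitate (-2.16), *Fasn*, fatty acid synthase (-1.80), *Acaca*, acetyl-CoA carboxylase (-1.37), and *Acly*, ATP citrate lyase (-1.15). *Fasn* had 15431, 14844 and 15581 counts in Control and 3994, 3762 and 4171 in H/R. The 2 targets higher by adjusted p alone were *Klf10* (0.74) and *Tkt* (0.18), named here after their values were seen. Some other ChREBP targets were near the limit of detection in these cells, including *Thrsp*, *Fgf21* and *Rgs16*, with at most 3 counts in every library.

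While *Slc2a2* fell, the GLUT1 gene and hexokinase genes rose. Of 13 transporter and hexokinase genes tested, 3 were called higher and 1 lower (3 and 4 by adjusted p alone, median 0.14). Among all genes 4.25% were called higher and 4.27% lower, and the counts by adjusted p alone were no higher than the 31.0% and 31.8% of all genes. *Slc2a1*, which encodes GLUT1, the transporter that TXNIP is known to remove from the cell surface, had 834, 792 and 853 counts in Control and 5695, 6002 and 6470 in H/R. This was an 8.06-fold increase (log2 fold change 3.01, adjusted p = 7.64e-33 by edgeR). The hexokinases *Hk2* (1.92) and *Hk1* (1.08) were the others called higher. The gene called lower was *Slc2a5*, the fructose transporter (-1.35), named here after its value was seen. It had 32, 22 and 28 counts in Control and 12, 7 and 10 in H/R, so that, like *Slc2a2*, it passed the filter on low counts only through Control.

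In the hexosamine pathway beyond *Gfpt1*, 13 genes were tested and none was called by both thresholds (5 higher and 4 lower by adjusted p alone, median 0.10), beside the 31.0% higher and 31.8% lower of all genes. The following steps were *Gnpnat1* (log2 fold change 0.69, adjusted p = 7.96e-09 by edgeR), *Pgm3* (0.39, adjusted p = 2.4e-05 by edgeR) and *Uap1* (-0.072, adjusted p = 0.276 by edgeR). *Pgm3* shared 28.3% of its exon length with *Dopey1* on the opposite strand. *Ogt*, which transfers the pathway's product to proteins, was 1.36-fold higher (adjusted p = 1.71e-07 by edgeR).

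Of 13 alpha-arrestin partners tested, 2 were called higher and none lower (7 and 2 by adjusted p alone, median 0.27), beside 4.25% called higher and 31.0% higher by adjusted p among all genes. Both encode ubiquitin ligases of the NEDD4 family, *Nedd4l* (1.44) and *Smurf1* (1.22). *Txn1*, the thioredoxin that TXNIP binds, had 756, 754 and 919 counts in Control and 538, 532 and 706 in H/R, a 1.24-fold decrease (adjusted p = 0.00407 by edgeR). Thioredoxin was thus well expressed in cells where *Txnip* was not detected above the limit.

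The MLX and MAX network includes MLX, with which ChREBP and MondoA pair. Of its 9 genes tested, 3 were called higher and none lower (7 and 1 by adjusted p alone, median 0.49). Among all genes, 4.25% were called higher and 31.0% were higher by adjusted p alone. The 3 called were *Mxd1* (2.66) and *Mxi1* (1.46), which encode MAX-binding repressors, and *Myc* (1.86). *Mlx*, the shared partner, was 1.41-fold higher (adjusted p = 1.99e-09 by edgeR), although 19.3% of its exon length overlaps *Psmc3ip* on the opposite strand. Among 12 genes of AMPK, the energy sensor, and its upstream kinases, 2 were called lower and none higher (3 lower and 5 higher by adjusted p alone, median 0.092), beside 4.27% called lower and 31.8% lower and 31.0% higher by adjusted p among all genes. The 2 were *Camkk2* (-1.68) and *Prkag2* (a 2.01-fold decrease), the latter with 14.5% of its exon length shared with antisense transcripts.

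**Figure D5:**
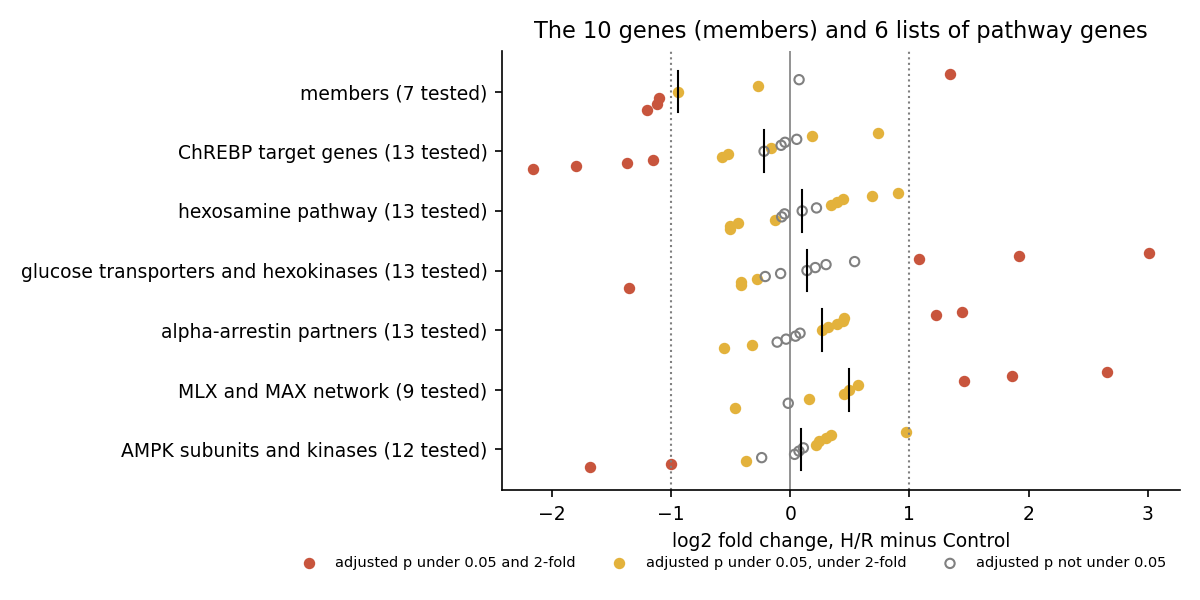
Log2 fold change (H/R minus Control) of each tested gene among the 10 genes (top row, labelled members) and in the 6 pathway lists, with a bar at each list's median. Points past both thresholds lie on or outside the dotted 2-fold lines. They are 1 higher and 3 lower of 7 in the top row, and 4 lower of 13 among ChREBP targets. Transporters and hexokinases hold 3 higher and 1 lower of 13, and the hexosamine list none. Alpha-arrestin partners hold 2 higher of 13, and the MLX and MAX network 3 higher of 9. The AMPK list holds 2 lower of 12. Among all genes tested, 4.25% were called higher and 4.27% lower.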

How the data were processed

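The authors extracted RNA with TRIzol and made stranded mRNA libraries, sequenced with paired ends. Per the labels, their processing notes name Trimmomatic 0.36, featureCounts of Subread 1.5.1, edgeR 3.12.1 and GRCm38 (mm10). For each library the deposited file gives raw read counts per gene, not normalised, and RPKM values, which the authors computed and which follow from the count, gene length and library total (largest relative error 1.13e-06). Every listed gene had a count in some library.

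Groups and replicate numbers came from the labels. Counts were tested in R 4.3.3 with edgeR 4.0.16 (filterByExpr, TMM, robust glmQLFit and glmQLFTest, both groups of 3 in 1 fit, no covariate). Normalised counts are counts scaled to the mean effective library size, and confidence intervals are at 95%. Genes with at most 3 counts in every library were taken as at the limit of detection. Replicates of a group differed by more than sampling noise. The ratios were tested by exact permutation in scipy 1.17.1. All tests were two-sided. The code was tested on simulated data. Alternatives were DESeq2 1.42.0, limma 3.58.1 on log2(RPKM + 1) and log2(RPKM + 0.1), other scalings and filters, a replicate block, a fold threshold of 1.5, and leaving out each library in turn.

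The 10 genes and all lists were chosen with earlier results of these data known. All 10 are named, with at most 4 called genes per list (those with the largest change given a mean of 20 counts or more) and the direct partners of the 10, which are *Mlx*, *Txn1*, *Slc2a1*, *Gnpnat1*, *Pgm3*, *Uap1* and *Ogt*. Genes named outside this rule are given as markers, overlapping neighbours, the genes nearest in pattern or genes at the limit of detection, or are said to be named after their values were seen. Overlapping genes are uncertain, since the counting strand is not given in the sources used here. Gene coordinates are those of the tables (GRCm38, counted from 1). Promoter windows are from RefSeq (GRCm38.p6). The result of 1 listed gene is not reported here.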

Additional observations from a re-analysis of the deposited data

How the results depend on the processing

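The directions of *Arrdc2*, *Arrdc3*, *Mlxipl*, *Gfpt1*, *Pklr* and *Slc2a2* were the same under every alternative in which they could be tested. *Slc2a2* could not be tested when 10 counts were required in every library. *Mlxip* turned from 0.074 to -0.031 with library totals, -0.022 in the limma fit to log2(RPKM + 1) and -0.028 with log2(RPKM + 0.1). The number of the 10 genes past both thresholds was 4. It was 1 in the limma fit to log2(RPKM + 1), where the pseudocount shrinks low genes by construction, and 2 to 5 when a library was left out. It was 3 in the limma fit to log2(RPKM + 0.1), where *Mlxipl* and *Slc2a2* fell under 2-fold and *Pklr* passed it. It was 5 with upper quartile scaling, library totals or a fold threshold of 1.5, and 2 without Control replicate 1, where *Mlxipl* and *Slc2a2* again fell under 2-fold. Over all genes, 1195 passed both thresholds, and 406 in the limma fit to log2(RPKM + 1). Relative to TMM scaling, library totals moved the median of all genes from -0.014 to -0.12 and the split from 596 higher and 599 lower to 476 and 810. The log2 difference of the *Mlxip* to *Mlxipl* ratio was 0.847 with 0.1 added to each RPKM, against 1.17. With the replicate number as a block the same 4 genes were past both thresholds, and exact sign-flip tests of the 2 ratios gave p = 0.25, the smallest possible with 3 pairs. Deviations of same-numbered libraries correlated at -0.0269, 0.00476 and -0.0141. No pairing by number was seen, but a correlation over all genes tested cannot exclude one. With a gap of 4 to 6 bases between the E-boxes, 93 windows (0.283%) held a pair, and among the 14 the same 2. Without the filter on low counts, *Txnip* had a log2 fold change of 0.11 with an SE of 1.58 and an adjusted p of 0.969 by edgeR, so depth limits any statement on it.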

Other observations

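The 27 promoter windows with paired E-boxes belonged to 26 genes, of which 15 were tested. Of these 15, 1 was called higher and 1 lower, beside 4.25% and 4.27% of all genes tested. Past both thresholds, *Fnip1*, which encodes a folliculin-interacting protein that binds AMPK, was higher after H/R (log2 fold change 1.72, adjusted p = 8.03e-25 by edgeR) and *Crybg3* was lower (-1.28, adjusted p = 8.69e-13 by edgeR). Of the others named above, *Pklr* was lower by adjusted p alone and *Txnip* was at the limit of detection. *Fnip1* and *Crybg3* were singled out after their values were seen, and the pair of E-boxes is a match of letters in each case.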
